A study of Mus musculus with 21 samples.

Results

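The miR-200c and miR-141 cluster is a pair of microRNA (miRNA) hairpins that lie side by side on mouse chromosome 6. Both arms of both hairpins were followed by name, which gave 4 members, miR-200c-3p, miR-200c-5p, miR-141-3p and miR-141-5p. All 4 were present in every deposited table. The tables of virgin females name 1909 miRNAs and those of breeding trial females 1841, of which 1816 are in both. The miR-200 family is encoded by this cluster and by another on chromosome 4 that holds miR-200b, miR-200a and miR-429. Its 3p strands are the guides that are loaded into Argonaute, and they repress ZEB1 and ZEB2, zinc finger repressors of epithelial genes. ZEB1 in turn represses transcription of both miR-200 clusters, so that the miRNAs and the repressor form a double-negative loop.

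Small RNAs were sequenced from whole pituitaries of female mice carrying a Zeb1 allele that the miR-200 family, miR-200c and miR-141 among it, can no longer repress. The allele was made by changing the target sites of the family in the 3′ untranslated region of the gene. Wild type (WT), heterozygous (Zeb1_200H, called 200H) and homozygous (Zeb1_200M, called 200M) females were compared to follow what the loss of this repression does in the gland. Virgin females of 8 to 12 weeks gave 3 WT, 4 200H and 4 200M libraries, and females of 28 to 36 weeks that had been through a breeding trial gave 4 WT, 3 200H and 3 200M libraries. Each library was made from another mouse on a C57BL/6J background, and the allele came through embryonic stem cell clones, so sequence near Zeb1 carried from the clones could not be told from the allele itself. The cohorts also differed in RNA input, sequencer and miRNA dictionary, so levels were compared within a cohort.

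Depth differed between the cohorts. In virgin WT females, the counted reads were 3816917 in replicate 1, 10806313 in replicate 2 and 9029142 in replicate 4. The other virgin libraries held 8502878 to 10515664 reads. Breeding trial totals ran from 60037 (200H replicate 3) to 191650 (WT replicate 4). Levels are given as counts per 1e6 counted reads (CPM). A floor of 3 counts came to 0.278 to 0.786 CPM in the virgin libraries and to 15.7 to 49.97 CPM in the breeding trial libraries, so the guides were well measured in both and the 5p strands in the virgin cohort alone. Intervals and floors cover counting error only.

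Virgin WT replicate 1 stood apart from all other virgin libraries. The top 3 miRNAs held 36.9% of all its counts, against 24.5% to 28.1% in the others. Its scaling factor by TMM, which corrects for the make-up of a library, was 0.616, against 0.943 to 1.12 in the others. Its counts differed from those of WT replicates 2 and 4 with a chi-square of 1074 and 1067 per degree of freedom, against 32.6 between replicates 2 and 4. Other virgin pairs of 1 genotype ran from 20.5 to 182 (200M replicates 3 and 4). The members' fold changes, the edgeR calls and the likenesses that rest on replicate 1 are given with and without it. Means, sums, ratios, shares and percentages without overlap include it unless stated.

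The members' seeds (bases 2 to 8, in capitals) are shown because they decide which targets a strand can pair with, and because the guides of both clusters fall into the same seed families. All 4 mature strands and both hairpins were found in the RefSeq miRNA table of build GRCm38.p6, from which these sequences come. The guide miR-200c-3p shares its seed with miR-200b-3p and miR-429-3p of the chromosome 4 cluster.
miR-200c-3p: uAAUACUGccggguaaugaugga
miR-200b-3p: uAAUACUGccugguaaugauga
miR-429-3p: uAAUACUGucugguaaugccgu
The guide miR-141-3p shares its seed with miR-200a-3p.
miR-141-3p: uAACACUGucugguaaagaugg
miR-200a-3p: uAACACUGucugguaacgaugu
Each 5p strand had a seed that no other mature miRNA of the table carried.
miR-200c-5p: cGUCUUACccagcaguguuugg
miR-141-5p: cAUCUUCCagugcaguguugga

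Positions below are counted from 1 at the 5′ end of the strand named first. From miR-200c-3p to miR-141-3p the differences were U4C, C9U, G11U and U17A, and U4C is the 1 base that sets the 2 seeds apart. From miR-200c-3p to miR-200b-3p they were G11U and G22A, and from miR-141-3p to miR-200a-3p they were A17C and G22U. Reads had been assigned by their first 19 bases (virgin cohort) or 18 bases (breeding trial cohort) without mismatch. Within those bases miR-200c-3p and miR-200b-3p differed at 1 position, as did miR-141-3p and miR-200a-3p, and no other mature miRNA of the table shared the start of any member.

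Both hairpins lay on the minus strand of chromosome 6 in GRCm38, Mir200c at 124718322 to 124718390 (69 bases) and Mir141 downstream of it at 124717914 to 124717985 (72 bases). Between them lay 336 bases, and together they spanned 477. Both sat in intron 1 of the antisense transcript Gm15884, which has 3 exons and starts 441 bases upstream of Mir200c. The annotated transcript Gm29008 overlaps Mir141, and the nearest protein-coding genes were Phb2, on the plus strand, and Ptpn6, on the minus strand.

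**Figure D1:**
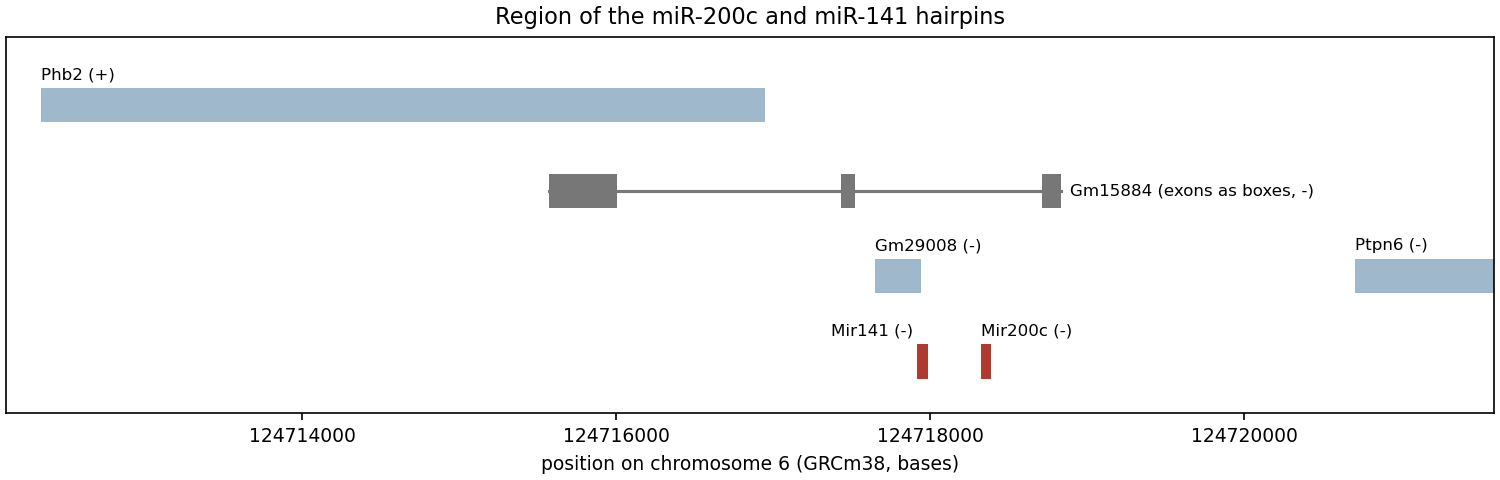
Map of the region on chromosome 6 (GRCm38, position in bases), with each gene drawn to scale by strand. Mir200c and Mir141 sit in intron 1 of Gm15884 with 336 bases between them.

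The guide miR-200c-3p was among the most abundant miRNAs of the WT pituitary and dropped with each mutant allele in both cohorts. In virgin WT females it stood at 29293 CPM in replicate 1, 14633 in replicate 2 and 15114 in replicate 4. The virgin 200H libraries held 3951, 3395, 4148 and 3721 CPM of miR-200c-3p, and the virgin 200M libraries 1639, 1723, 1604 and 1715 CPM. The 3 genotypes did not overlap, and WT replicate 1 was far above the other WT libraries. After the breeding trial miR-200c-3p stood at 19153, 18861, 21536 and 18617 CPM in WT, at 4382, 4780.4 and 4188 CPM in 200H, and at 1848, 1989 and 1783 CPM in 200M. The same order held with no overlap, and the WT libraries lay close together. Mean levels were 19680 ± 8329 (SD, n = 3), 3804 ± 323 (n = 4) and 1670.3 ± 58.1 CPM (n = 4) in virgin WT, 200H and 200M. Breeding trial means were 19542 ± 1347 (n = 4), 4450.1 ± 302 (n = 3) and 1873 ± 105 CPM (n = 3). By mean level miR-200c-3p held place 13 among virgin WT miRNAs (16 without replicate 1), place 49 in 200H and place 75 in 200M, and places 11, 34 and 66 in the breeding trial cohort.

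The partner guide miR-141-3p followed the same course at nearly the same level. In virgin WT females it stood at 23009, 18509 and 17702 CPM (replicates 1, 2 and 4), in 200H at 4771, 4185, 5055 and 4478 CPM, and in 200M at 2074, 1998, 1992.5 and 2167 CPM. No virgin genotype overlapped another, and WT replicate 1 was the highest library again. Breeding trial WT libraries held 19554, 16562, 16803 and 20042 CPM of miR-141-3p, 200H libraries 4136, 3131 and 4592 CPM, and 200M libraries 1916, 2198 and 1938 CPM. All WT libraries were above all 200H libraries, and these above all 200M libraries, although 200H replicate 3 was low within its group. Group means were 19740.2 ± 2860 (SD, n = 3), 4622 ± 375 (n = 4) and 2058 ± 81.8 CPM (n = 4) in the virgin cohort and 18240.1 ± 1812 (n = 4), 3953 ± 747 (n = 3) and 2018 ± 157 CPM (n = 3) in the breeding trial cohort. The guide counts behind the breeding trial levels were small in 200M, from 162 for miR-200c-3p in replicate 1, a level of 1848 CPM with a 95% Poisson interval of 1574 to 2155.

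Of the 5p strands, which are the passenger strands of these hairpins, miR-141-5p was the more abundant. In virgin females it stood at 85.1, 65.5 and 66.2 CPM in WT, at 16.0, 18.6, 22.2 and 15.2 CPM in 200H, and at 7.61, 6.63, 8.23 and 7.70 CPM in 200M. The 3 genotypes did not overlap. In virgin females miR-200c-5p stood at 19.4, 12.7 and 12.4 CPM in WT, at 2.53, 3.92, 3.37 and 3.39 CPM in 200H, and at 1.71, 0.947, 1.06 and 1.95 CPM in 200M. These groups were apart as well, in the same order, with every library above its floor of 3 counts.

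The 5p strands of the breeding trial cohort were close to the limit of the depth. There miR-141-5p had 16, 11, 9 and 15 counts in WT, 1, 0 and 2 counts in 200H, and 2, 0 and 3 counts in 200M. The WT libraries were above every mutant library, and the mutant genotypes overlapped. For miR-200c-5p the counts were 4, 2, 3 and 2 in WT, 1, 0 and 0 in 200H, and 0, 1 and 0 in 200M. The WT libraries had the more counts, but by as little as 1. Pooled over libraries and set against WT, miR-141-5p was at 10.6% in 200H (95% interval 2.12% to 32.8%) and at 15.9% in 200M (4.97% to 39.7%). For miR-200c-5p the pooled levels were 16.4% in 200H (0.381% to 113%) and 14.8% in 200M (0.343% to 102%), so a difference from WT was not detectable at this depth.

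**Figure D2:**
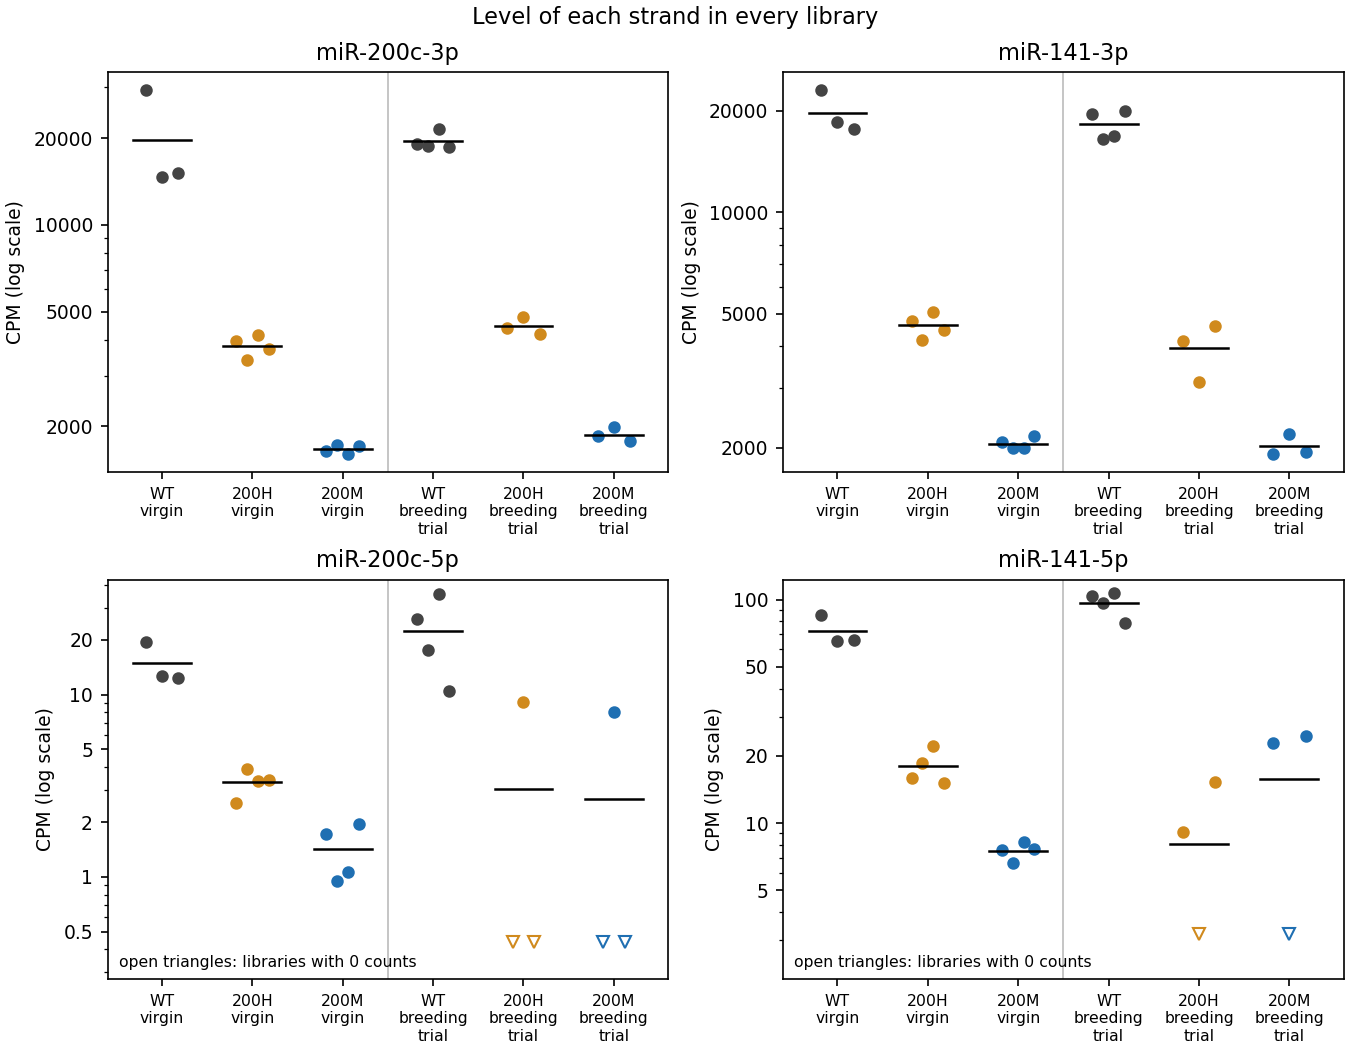
Level of each of the 4 members (CPM, log axis) in every library, by genotype and cohort, with group means. The guides fall from WT to 200H to 200M in both cohorts with no overlap, and the 5p strands of the breeding trial cohort lie near the floor of 3 counts.

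Summed over the 4 members, the cluster went from 39507 CPM in virgin WT to 8447 in 200H and 3737 in 200M, and from 37901 to 8414 to 3909 in the breeding trial cohort. In percent of WT this was 21.4% and 9.46% in virgin 200H and 200M, and 22.2% and 10.3% in the breeding trial cohort. The virgin values include WT replicate 1, with a sum of 52407 CPM against 33220 and 32894 in replicates 2 and 4. The spread among members was small once virgin WT replicate 1 was left out. Without it the 4 members stood at 25.6% (miR-200c-3p), 26.3% (miR-200c-5p), 25.5% (miR-141-3p) and 27.3% (miR-141-5p) of WT in 200H. In 200M they stood at 11.2%, 11.3%, 11.4% and 11.4% in the same order, with 2 WT libraries left. With it the percentages for miR-200c-3p were 19.3% in 200H and 8.49% in 200M. In a bulk sample, fewer cells that express a miRNA and less of it per cell cannot be told apart.

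Homozygous females were compared with WT to see what carrying only the resistant allele does. Raw counts were tested with edgeR in each comparison, and a miRNA was called where its p, adjusted over all miRNAs that passed a filter on low counts, was below 0.05. Counts of members are given beside the percentage of all tested miRNAs called, or without overlap, in the same comparison. A miRNA that reached the filter level in too few libraries of 1 of the groups was tested but is not counted, because it had to be high in the other, a rule added after seeing the data. The percentages keep such miRNAs. Over miRNAs at that level in both groups, 4.62% (200M) and 3.91% (200H) were called lower against WT in virgin females. In breeding trial females these were 16.0% and 6.81%. In the virgin cohort all 4 members fell, and they held places 2 to 5 from the lowest fold change among 678 miRNAs tested. All 4 of 4 were called lower, against 3.83% of all tested miRNAs, and in all 4 of 4 every 200M library was below every WT library, against 4.57% of those tested. The log2 fold change of miR-200c-3p was -4.10 (SE 0.412), lower in 4 of 4 libraries, with adjusted p = 3.26e-04 (edgeR quasi-likelihood, Benjamini-Hochberg). For miR-141-3p it was -3.73 (SE 0.267) and lower in 4 of 4 libraries, with adjusted p = 3.78e-05 by the same edgeR quasi-likelihood test and Benjamini-Hochberg adjustment. For the 5p strands it was -3.795 (miR-200c-5p, SE 0.431) and -3.72 (miR-141-5p, SE 0.292). Without WT replicate 1 the 4 fold changes came together, at -3.31 for miR-200c-3p, -3.27 for miR-200c-5p, -3.30 for miR-141-3p and -3.29 for miR-141-5p, and all 4 were still called, against 10.5% of 703 tested miRNAs called lower. In all, 44 miRNAs were called (26 lower, 18 higher), and 168 without that library (74 lower, 94 higher).

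Breeding trial 200M females had less of both guides as well. Of the guides 2 of 2 were called lower, against 15.6% of 276 tested miRNAs, and 2 of 2 had no overlap with WT, against 9.06%. The strand miR-200c-5p did not reach the expression filter. The strand miR-141-5p reached it through its WT counts alone and is not counted. The log2 fold change was -3.61 for miR-200c-3p (SE 0.112), lower in 3 of 3 libraries, with adjusted p = 2.42e-19 (edgeR quasi-likelihood, Benjamini-Hochberg). For miR-141-3p it was -3.41 (SE 0.121), lower in 3 of 3 libraries, with adjusted p = 3.31e-18 (edgeR quasi-likelihood, Benjamini-Hochberg). For miR-141-5p it was -2.80 with a wide error (SE 0.513). In all, 99 miRNAs were called, 43 lower and 56 higher.

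Heterozygous females were compared with WT to see what 1 resistant allele does. In virgin 200H all 4 of 4 members were called lower, against 3.42% of 672 tested miRNAs, and 4 of 4 had no overlap with WT, against 4.76%. The log2 fold change of miR-200c-3p was -2.86 (SE 0.403), that of miR-200c-5p -2.55 (SE 0.363), that of miR-141-3p -2.51 (SE 0.265) and that of miR-141-5p -2.41 (SE 0.296). The adjusted p of the edgeR quasi-likelihood test (Benjamini-Hochberg) ran from 5.90e-04 for miR-141-3p to 0.00342 for miR-200c-5p, each lower in 4 of 4 libraries. With a replicate block miR-200c-5p stood at -2.49 and was not called (edgeR quasi-likelihood, Benjamini-Hochberg adjusted p = 0.0702). Without WT replicate 1 they were -2.09, -2.05, -2.10 and -1.998 in the same order, all called, against 11.0% of 699 tested miRNAs called lower, and the number of miRNAs called in all went from 34 (23 lower, 11 higher) to 151 (77 lower, 74 higher). In breeding trial 200H 2 of the 2 guides were called lower, against 7.12% of 267 tested miRNAs, and 2 of 2 had no overlap with WT, against 5.99%. There the log2 fold change was -2.31 for miR-200c-3p (SE 0.113) and -2.37 for miR-141-3p (SE 0.134). For miR-141-5p, which reached the filter through its WT counts alone and is not counted, it was -3.28 (SE 0.573), and 32 miRNAs were called in all (19 lower, 13 higher). These comparisons use the same WT libraries as those of 200M, so they are given side by side.

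The comparison of 200M with 200H asks what the second resistant allele adds, and it does not use the WT libraries. In virgin females 3 members, both guides and miR-141-5p, fell again and had fold changes among the 4 lowest of 675 miRNAs tested. Called lower were 3 of the 3 that reached the filter level in both groups, against 1.48% of all tested, and 3 of 3 had no overlap, against 1.93%. The 4th member, miR-200c-5p, reached that level in only 3 of 4 200M libraries and is not counted. The log2 fold change was -1.24 for miR-200c-3p (SE 0.0783), lower in 4 of 4 libraries, with adjusted p = 1.14e-06 (edgeR quasi-likelihood, Benjamini-Hochberg). For miR-141-3p it was -1.22 (SE 0.0785), lower in 4 of 4 libraries, with the same adjusted p of 1.14e-06 (edgeR quasi-likelihood, Benjamini-Hochberg). These were the 2 lowest p values of the comparison, in which 15 miRNAs were called (10 lower, 5 higher). For miR-141-5p it was -1.31 (SE 0.155), with adjusted p = 5.58e-04 (edgeR quasi-likelihood, Benjamini-Hochberg) and lower in 4 of 4 libraries. For miR-200c-5p it was -1.24 (SE 0.279), lower in 4 of 4 libraries, with adjusted p = 0.0366 (edgeR quasi-likelihood, Benjamini-Hochberg). That last call ended when any 1 of 7 of the 8 libraries was left out, and in the fits with a replicate block or with all 3 genotypes together. In the fit of all 3 genotypes together, which takes in WT replicate 1, miR-200c-3p stood at -1.24 and was not called either.

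Between breeding trial 200M and 200H 3 miRNAs were called, 2 lower and 1 higher, and the 2 lower ones were miR-200c-3p and miR-141-3p. Thus 2 of the 2 members tested were called, against 0.730% of 274 tested miRNAs, and 2 of 2 had no overlap, against 6.57%. The log2 fold change of miR-200c-3p was -1.28 (SE 0.148), lower in 3 of 3 libraries, with adjusted p = 1.37e-12 (edgeR quasi-likelihood, Benjamini-Hochberg). For miR-141-3p it was -1.02 (SE 0.149), lower in 3 of 3 libraries, with adjusted p = 2.28e-08 (edgeR quasi-likelihood, Benjamini-Hochberg). Neither 5p strand reached the filter. With the replicate number as a block, which keeps the 2 numbers both groups share, miR-200c-3p stood at -1.38 with adjusted p = 0.0789 and miR-141-3p at -0.95 with adjusted p = 0.304 (edgeR quasi-likelihood, Benjamini-Hochberg), and neither was called.

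Whether the first and the second allele moved a member by the same amount on the log2 scale was tested by a contrast of the 2 steps, which is above 0 where the first step is the larger drop. In the 10 breeding trial libraries the contrast was 1.02 for miR-200c-3p (SE 0.198), called with adjusted p = 9.64e-04 (edgeR quasi-likelihood, Benjamini-Hochberg). It was 1.34 for miR-141-3p (SE 0.233), called with adjusted p = 2.43e-04 (edgeR quasi-likelihood, Benjamini-Hochberg). Here 2 of the 2 guides were called above 0, against 3.17% of 284 tested miRNAs, and miR-141-5p, in the fit through its WT counts alone, is not counted. A larger first drop was not particular to this cluster. In the breeding trial fits of 200H against WT, miR-200b-3p, miR-200a-3p and miR-429-3p of chromosome 4 stood at -2.53, -2.80 and -2.86. In 200M against 200H they stood at -0.35, -0.13 and -0.34. In the virgin cohort 0 of the 4 members were called by edgeR, against 1.42% of 704 tested miRNAs, where 10 were called in all (23 by DESeq2) and 65 had an unadjusted p below 0.05. The contrast was 1.62 for miR-200c-3p (SE 0.547) and 1.30 for miR-141-3p, and of the 4 DESeq2 called miR-141-3p alone. Without WT replicate 1 it was 0.86 for miR-200c-3p and 0.88 for miR-141-3p, both called by the edgeR quasi-likelihood test with Benjamini-Hochberg adjusted p = 0.00135. In that fit 40 miRNAs were called in all and 3.29% of 729 were called above 0, and neither 5p strand was called.

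In levels rather than logarithms, the mean of miR-200c-3p in virgin females dropped by 80.7% from WT to 200H (to 25.6% of WT without WT replicate 1) and by a further 56.1% from 200H to 200M. After the breeding trial the drops were 77.2% and 57.9%. For miR-141-3p they were 76.6% (to 25.5% of WT without WT replicate 1) and 55.5% in virgin females and 78.3% and 49.0% in the breeding trial cohort.

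Whether the fold changes differed between the cohorts was tested by an interaction over 566 miRNAs in all 21 libraries. For 200M against WT 0 of the 2 guides were called, against 0% of all tested, and for 200H against WT 0 of the 2, against 0%. The 5p strands were too low in the mutants of the breeding trial cohort to be counted here. The edgeR quasi-likelihood test gave 44 and 49 miRNAs with an unadjusted p below 0.05, and DESeq2 called 0 in each. The difference for miR-200c-3p was 0.49 in 200M (SE 0.349) and 0.54 in 200H (SE 0.345), and for miR-141-3p 0.33 (SE 0.271) and 0.13 (SE 0.269). Without virgin WT replicate 1 all 4 of these turned negative, at -0.24, -0.18, -0.05 and -0.24 in the same order, and none was called.

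Within each hairpin the balance of the arms was followed in the virgin cohort. For miR-200c, the log2 ratio of 3p to 5p reads averaged 10.33 ± 0.21 (SD, n = 3) in WT, 10.18 ± 0.35 (n = 4) in 200H and 10.27 ± 0.51 (n = 4) in 200M. For miR-141 it averaged 8.09 ± 0.04, 8.02 ± 0.22 and 8.10 ± 0.13. The genotypes overlapped in every comparison. The 5p arm made up 0.0794% of miR-200c reads in WT (95% Clopper-Pearson interval 0.0710% to 0.0886%), 0.0862% in 200H and 0.0863% in 200M. For miR-141 it made up 0.363%, 0.389% and 0.364%, so the 5p arm had the higher share in miR-141 in all 3 genotypes. Counts of 0 in the breeding trial cohort left a ratio in only 2 of 3 libraries of each mutant for miR-141 and in 1 of 3 for miR-200c. No arm ratio is given there, since the libraries with the fewest 5p reads are those left out.

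The guides of the cluster were also set against each other. In virgin females log2 of miR-200c-3p over miR-141-3p was 0.35, -0.34 and -0.23 in WT. It averaged -0.28 ± 0.02 (SD, n = 4) in 200H and -0.30 ± 0.06 (n = 4) in 200M. Of the virgin libraries only WT replicate 1 had more miR-200c-3p than miR-141-3p. Breeding trial means were 0.10 ± 0.21 (n = 4), 0.19 ± 0.38 (n = 3) and -0.11 ± 0.05 (n = 3), and the groups overlapped.

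The chromosome 6 guides were then set against the chromosome 4 guides of the same library, which needs no scaling between libraries. In virgin females log2 of this ratio was 1.67, 0.55 and 0.54 in WT (replicates 1, 2 and 4), 0.94, 0.92, 0.90 and 1.02 in 200H, and 0.18, 0.33, 0.23 and 0.23 in 200M. The 200M libraries were below all others, and 200H lay above WT replicates 2 and 4 and below WT replicate 1. Breeding trial ratios were 0.65, 0.45, 0.59 and 0.64 in WT, 1.10, 0.75 and 0.95 in 200H, and 0.15, 0.07 and -0.07 in 200M. There the 3 groups did not overlap, with 200H highest and 200M lowest. The order of the breeding trial groups in this ratio was thus not that of their number of mutant alleles.

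From 200H to 200M the mean log2 ratio differed by -0.70 in virgin females, a fold of 0.616, and by -0.89 in the breeding trial cohort. The two-sided exact permutation p was 0.0286 with 4 libraries against 4 and 0.1 with 3 against 3, each the smallest its design allows, and the adjusted values were 0.171 and 0.236 over 33 ratio and share tests, among them the 3 of the breeding trial miR-141 arm ratio, which is not given. From WT to 200H the difference was 0.35 in the breeding trial cohort (exact permutation p = 0.0571, the smallest possible for 3 against 4). In virgin females it was 0.02, and 0.40 without WT replicate 1. From WT to 200M it was -0.67 in virgin females (-0.30 without WT replicate 1) and -0.53 in the breeding trial cohort. With 3 libraries in a group the design cannot reach 0.05. With 4 against 4 it can before adjustment, but not after adjustment over 33 tests. None of the 33 tests did after adjustment, an outcome fixed by the design, so the adjusted values decide nothing here.

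The share of each seed family that came from chromosome 6 was read as well. In virgin females miR-200c-3p made up 79.3%, 52.1% and 53.5% of the reads of miR-200b, miR-200c and miR-429 in WT. It made up 60.4%, 59.4%, 58.5% and 61.2% in 200H, and 46.8%, 50.5%, 48.4% and 48.0% in 200M. Its breeding trial share was 57.1%, 56.1%, 59.1% and 57.0% in WT, 62.8%, 62.9% and 62.1% in 200H, and 48.4%, 46.8% and 45.0% in 200M. Every 200M library had a lower share than every other library of its cohort. In the family of miR-200a and miR-141 the mean share of miR-141-3p was 68.2%, 71.6% and 60.1% in virgin WT, 200H and 200M, and 62.9%, 69.2% and 55.5% in the breeding trial cohort. Here too all 200M libraries were below all others of their cohort.

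**Figure D3:**
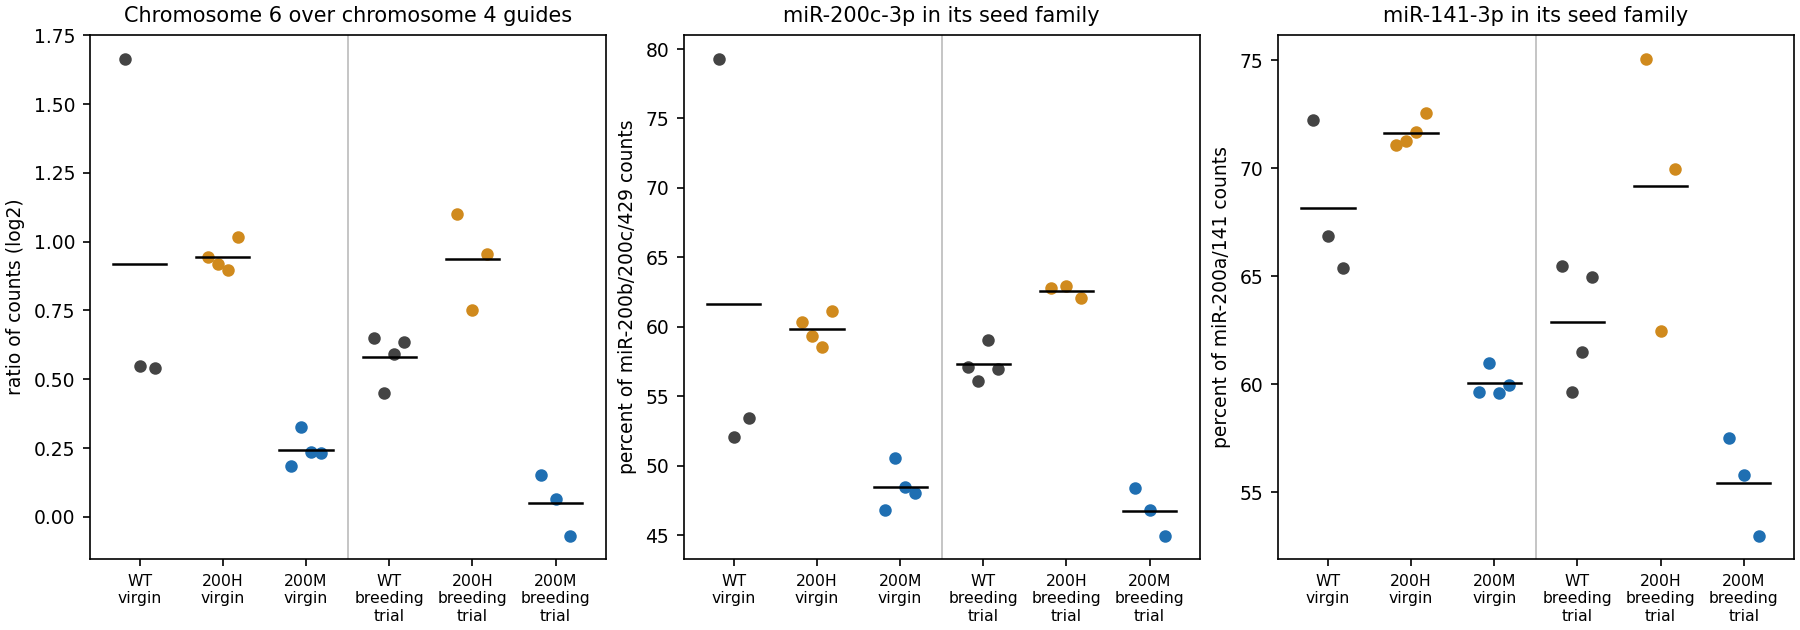
Ratios within each library by genotype and cohort, with group means. The chromosome 6 guides over the chromosome 4 guides are lowest in 200M in both cohorts and highest in 200H in the breeding trial cohort.

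The chromosome 4 cluster was tested by the same fits. Of its strands that reached the filter level in both groups, 5 of 5 fell in virgin 200M and 200H against WT, beside 3.83% and 3.42% of all tested miRNAs. The same 5 did without WT replicate 1, beside 10.5% and 11.0%. After the breeding trial 3 of 3 fell in 200M and 200H, beside 15.6% and 7.12%. Called but not counted were miR-429-5p (virgin) and miR-200b-5p (breeding trial), which reached the filter through WT alone. From 200H to 200M edgeR called 3 of 5 tested strands lower in virgin females (DESeq2 4), against 1.48% of all tested by edgeR. On the log2 scale miR-200b-3p fell by 0.51, miR-200a-3p by 0.47 and miR-429-3p by 0.82. Each fell by less than any counted member of the chromosome 6 cluster. Of the 3 guides tested in the breeding trial cohort edgeR called 0 and DESeq2 0, with log2 fold changes of -0.35, -0.13 and -0.34 in the same order, and 1 had an unadjusted p below 0.05.

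Across libraries miR-141-3p was the miRNA most like miR-200c-3p among 153 ranked by Pearson's r of log2 CPM, with r = 0.996 over 11 virgin libraries and 0.988 over 10 breeding trial libraries. Outside the cluster the miRNAs most like miR-200c-3p, by the lower r of the cohorts, were miR-200a-3p (0.951), miR-429-3p (0.949), miR-200b-3p (0.945), miR-96-5p (0.943) and miR-30d-5p (0.909). Those most like miR-141-3p were miR-429-3p (0.969), miR-200a-3p (0.963), miR-200b-3p (0.963), miR-96-5p (0.962) and miR-205-5p (0.908). The median over all ranked miRNAs was -0.300 for miR-200c-3p and -0.235 for miR-141-3p. The libraries of all genotypes share these correlations, so any miRNA that follows genotype ranks high, and no p is given. Without virgin WT replicate 1, a choice made after seeing the data, miR-141-3p was again most like miR-200c-3p (r = 0.999 over 10 virgin libraries). Those named for miR-141-3p stayed the same 5, and among those most like miR-200c-3p miR-205-5p (0.914) took the place of miR-30d-5p (0.871).

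Epithelial miRNAs outside the family were followed beside it. Of 8 measured names, 5 fell in virgin 200M and in virgin 200H (miR-205-5p of stratified epithelium, miR-183-5p, miR-96-5p, miR-182-5p and miR-31-5p), where 3.83% and 3.42% of all tested miRNAs were called lower. Leaving out WT replicate 1 made them 6 of 8 in each, with miR-375-3p added, against 10.5% and 11.0% of all tested. Both forms of miR-203-3p had higher mean levels in the virgin mutants and were not called. They averaged 72.8 and 84.4 CPM in WT, 95.0 and 110 in 200H, and 90.9 and 104 in 200M. From 200H to 200M edgeR called 1 of 8 (miR-183-5p) lower in virgin females, against 1.48%, and DESeq2 called 2. By edgeR 4 of the 8 had an unadjusted p below 0.05. After the breeding trial 4 of the 5 that reached the filter level in both groups fell in 200M and in 200H (miR-205-5p, miR-96-5p, miR-182-5p and miR-375-3p), against 15.6% and 7.12%. The other was miR-31-5p in 200M (log2 fold change -0.21) and miR-203-3p in 200H (0.26), and neither was called. There miR-183-5p, called in both but short of that level in the mutants, is not counted, and from 200H to 200M 0 of the 4 at that level in both groups were called by edgeR and 0 by DESeq2, with 0 at an unadjusted p below 0.05. The list summed to 108528 to 148191 CPM in virgin WT and to 78056 to 98409 in virgin mutants, and to 117866 to 149565 in breeding trial WT and 91017 to 109421 in the mutants, nearly all of it miR-375-3p. That miRNA is also on the hormone cell list.

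Markers of the cell types a pituitary sample can hold were read in the same libraries, and whether their differences bear on the cluster was not tested. The hormone cell list (miR-7a-5p, miR-7b-5p and miR-375-3p) was the most abundant in every library, with 231804 to 279905 CPM in virgin libraries other than WT replicate 1, which held 368951. Breeding trial libraries held 288001 to 314366 CPM of it in WT, 263402 to 289256 in 200H and 246486 to 260271 in 200M. Of its 3 miRNAs edgeR called 0 in each virgin comparison, with 2 (200M against WT), 1 (200H against WT) and 1 (200M against 200H) at an unadjusted p below 0.05, and DESeq2 called 1, 1 and 0. When WT replicate 1 was left out edgeR called miR-375-3p lower in 200M and 200H against WT, beside 10.5% and 11.0% of all tested. In breeding trial females 2 were lower in 200M and 1 in 200H against WT, where 15.6% and 7.12% of all tested miRNAs were, and between the mutants edgeR and DESeq2 called 0, with 1 at an unadjusted p below 0.05. Brain or posterior lobe miRNAs summed to 2163, 4927 and 5498 CPM in virgin WT, 8423 to 9163 in 200H and 8979.8 to 12546 in 200M. Breeding trial sums were 6291 to 7587 CPM in WT, 10727 to 12900 in 200H and 17148 to 17224 in 200M. Of these miRNAs 2 of 9 rose in each virgin comparison, both forms of miR-124-3p, a neuronal miRNA and the most abundant of the list in the mutants. Of all tested miRNAs 2.65% were called higher in 200M against WT, 1.64% in 200H against WT and 0.741% in 200M against 200H. The counts were 5 of 9 in 200M and in 200H without WT replicate 1, against 13.4% and 10.6% of all tested. In virgin females the list did not move as 1. There miR-219a-5p averaged 156 CPM in WT, 145 in 200H and 128 in 200M and was not called. In the breeding trial cohort it averaged 182, 196 and 270 CPM in the same order and was not called either. After the breeding trial 4 of the 7 tested rose in 200M against WT (3 of them by DESeq2), where 20.3% of all tested miRNAs did. Of the 6 at the filter level in both groups, 1 rose in 200H against WT (4.87% of all tested). Between the mutants 1 of 6 rose (0.365% of all tested). In these 2 comparisons miR-219a-5p reached the filter through 1 group and is not counted.

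The blood list summed to 6036 to 20229 CPM in virgin and 6255 to 12450.1 CPM in breeding trial libraries, with miR-451a of red cells the most abundant in each. Of its 7 miRNAs edgeR called 0 in each virgin comparison, with 2, 2 and 0 at an unadjusted p below 0.05 (200M against WT, 200H against WT, 200M against 200H), and DESeq2 called 1, 1 and 0. Without WT replicate 1 edgeR called 1 of 7 higher in 200M and 2 of 7 in 200H, against 13.4% and 10.6% of all tested. In breeding trial females 2 of the 4 that reached the filter level in both groups were higher in 200M against WT (1 by DESeq2), where 20.3% of all tested miRNAs were. In the other breeding trial comparisons edgeR and DESeq2 called 0 of them, with 1 in 200H against WT (miR-223-3p not counted) and 1 in 200M against 200H at an unadjusted p below 0.05.

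Vessel and mesenchyme miRNAs, with miR-126a-3p of endothelium the most abundant in each library, had lower sums in WT than in the mutants. Virgin sums were 6901 to 7688 CPM in WT and 7757 to 10891 in the mutants. Breeding trial sums of these miRNAs were 7952 to 8372 CPM in WT and 10344 to 12650.4 in the mutants. Of these 1 of 7 (miR-145a-5p) was higher in virgin 200M against WT (1 by DESeq2), against 2.65% of all tested miRNAs, and 3 of the 4 at the filter level in both groups in breeding trial 200M against WT (1 by DESeq2), against 20.3%. Without virgin WT replicate 1, 2 of 7 were higher in 200M and 1 of 7 in 200H, against 13.4% and 10.6% of all tested. In each of the other 4 comparisons edgeR and DESeq2 called 0 of them, with 1 at an unadjusted p below 0.05. The liver miRNA miR-122-5p stood at 2.36 to 7.93 CPM in virgin libraries, where neither tool called it and its unadjusted p was below 0.05 in 200H against WT alone. It was at 0 in 5 of 10 breeding trial libraries, with at most 49.97 CPM, and was not tested there. Muscle miRNAs summed to 8.20 to 95.998 CPM in virgin libraries. Of these edgeR called 0 in each virgin comparison, with 4 (2 of them short of the filter level in WT), 1 and 0 at an unadjusted p below 0.05, and DESeq2 called 3, 1 and 0, all higher in the mutant. With WT replicate 1 left out edgeR called 2 of 3 higher in 200M (0 by DESeq2) and 1 of 3 in 200H (1 by DESeq2) against WT, where 13.4% and 10.6% of all tested miRNAs were, and miR-206-3p, which reached the filter through 200M alone, is not counted. They reached at most 31.3 CPM in the breeding trial cohort, with the defining miR-1a-3p at 0 in 4 of 10 libraries, and none was tested there.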

How the data were processed

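The authors trimmed adapters, filtered reads by quality, matched read starts without mismatch to TargetScanMouse 7 (virgin cohort) or miRBase 20 names, and deposited 6 tables, whose raw counts per miRNA in 21 libraries were used. The deposited comparison columns (fold change with its error, Wald statistic, p values, mean level) and 42 size-factor scaled columns were not used. Members and lists were chosen with earlier results of these data known. Named are the 4 members, the chromosome 4 cluster, the listed epithelial and cell type miRNAs, and the 5 miRNAs most like each guide at a mean count of at least 50 in both cohorts.

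Genotypes were compared within a cohort in R 4.3.3 with edgeR 4.0.16 (TMM, quasi-likelihood F test, filterByExpr with a minimum count of 10 and total of 15), with Benjamini-Hochberg adjustment over all miRNAs tested and a threshold of 0.05. Standard errors came from the F statistic. Ratios and shares were compared by two-sided exact permutation tests (scipy 1.17.1), adjusted over 33 tests. Alternatives were DESeq2 1.42.0, limma 3.58.1 voom with sample weights, other scaling, filters, blocks and leaving out each library. Deviations from group means correlated above 0.1 for every shared replicate number in breeding trial 200H against WT alone (r of 0.112, 0.100 and 0.190), although 2 of the 3 had a higher r with another number (0.219 and 0.167). There the block gave 42 calls against 32 and kept those of both guides, while miR-141-5p was not tested.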

Additional observations from a re-analysis of the deposited data

Results flagged for a closer look

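Of 54 groups of 4 libraries that were tested for a library far from the rest of its group, 1 had such a library. Chance marks about 1 in 20 groups. In breeding trial WT females the blood list summed to 9127.85 CPM in replicate 2, against 6255 to 6715 CPM in the other WT libraries. The gap took up 0.840 of the range of the group, above Dixon's 95% critical value for 4 libraries. In this library miR-200c-3p stood at 18861 CPM, within the range of the other WT libraries, and miR-141-3p at 16562 CPM, just under the next lowest at 16803.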

How the results depend on the processing

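Of the 17 genotype comparisons of members that reached the filter level in both groups, 115 of 119 values under other settings and 120 of 120 with 1 library left out kept both call and direction. Not counted are miR-141-5p in breeding trial females against WT and miR-200c-5p in virgin 200M against 200H, which lost its call often. The exceptions, that one included, were these, and the cause was not tested. For virgin 200M against 200H, miR-200c-5p lost its call in the fit of all 3 genotypes (-1.23), with the replicate block (-1.26) and in 7 of 8 leave-one-out fits (-1.44 to -1.07), and miR-200c-3p in the fit of all 3 genotypes (-1.24, adjusted p = 0.121 by edgeR). With the replicate block, which uses fewer libraries, virgin 200H against WT lost miR-200c-5p (-2.49), and breeding trial 200M against 200H lost miR-200c-3p (-1.38) and miR-141-3p (-0.95). The number of miRNAs called moved more. For virgin 200M against WT (44) it was 86 with DESeq2, 90 in the common fit, 20 with the block, 184 with voom and 25 to 168 with 1 library left out. For virgin 200H against WT (34) it was 66, 67, 18, 152 and 21 to 151. For virgin 200M against 200H (15) the common fit gave 5. For breeding trial 200M against 200H (3) the block gave 0, voom 5 and leave-one-out 3 to 5. For the virgin step contrast (10) DESeq2 gave 23 and leave-one-out 6 to 40. Its value for miR-141-3p was 1.31 and called with DESeq2, and leaving out 1 library gave 0.88 to 1.51 for it and 0.86 to 1.93 for miR-200c-3p, both called without WT replicate 1. The cohort difference changed sign in some leave-one-out fits, with no member called. For 200M it ran from -0.24 to 0.66 (miR-200c-3p), -5.79 to 1.33 (miR-200c-5p) and -0.053 to 0.40 (miR-141-3p), and 0 to 1 miRNAs were called. For 200H it ran from -0.18 to 0.75, -6.90 to 0.48 and -0.24 to 0.30. Of the ratios, none of which passed a test, the virgin log2 3p to 5p ratio of miR-141 in 200M against WT was -0.0067 with 0.5 added to each count and -0.045 to 0.061 with 1 library left out. That of miR-200c was -0.25 to 0.10 in 200M against WT and -0.10 to 0.25 in 200M against 200H. For 200H against WT, miR-200c-3p over miR-141-3p ran from -0.34 to 0.0019 in virgin and -0.13 to 0.24 in breeding trial females, the virgin chromosome 6 to chromosome 4 ratio from -0.16 to 0.40, and the virgin share of miR-200c-3p from -6.54 to 7.08 percentage points. Named likenesses held for 5 of 5 at a minimum mean count of 10, and for 3 (miR-200c-3p) and 2 (miR-141-3p) at 500. Without virgin WT replicate 1, chosen after seeing the data, they held for 4 (miR-200c-3p) and 5 (miR-141-3p). Depth limits both 5p strands of the breeding trial cohort.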
